A study of Mus musculus with 18 samples.

Results

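The subject is a set of 10 imprinted genes that have been tied to the quiescence of hematopoietic stem cells (HSCs), namely H19, Igf2, Meg3, Rian, Mirg, Dlk1, Ndn, Grb10, Plagl1 and Peg3. The 10 genes were taken by symbol and all 10 were found among the 24421 symbols of the count table. The table held 18 libraries of total RNA from HSC fractions sorted from the bone marrow of Hoxb5-tri-mCherry mice on a C57BL/6J background, a reporter line in which mCherry is read as Hoxb5 expression. The 6 groups were young and aged LT-HSCs (long-term HSCs, Hoxb5-positive), young and aged ST-HSCs (short-term HSCs, Hoxb5-negative) and young and aged bulk-HSCs (all cells in the surface-antigen HSC gate, a gate that holds both of the others), with 3 libraries in each. The young mice were aged 2 to 3 months at harvest, the aged ones 23 to 25. All groups carried the reporter allele, so the LT-HSC and ST-HSC fractions are defined by that reporter alone within the HSC gate, and bulk-HSCs are not independent of them as a cell population. The labels do not say whether each library came from its own animal or whether the fractions of a given replicate number came from the same mouse, so the p-values measure the spread between these libraries, which may be technical.

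In imprinted genes the copy inherited from 1 parent is read and the other is silent, a state kept by DNA methylation at imprinting control regions. At the H19-Igf2 locus the maternal copy makes the noncoding RNA H19 and the paternal copy makes the growth factor Igf2. At the Dlk1-Dio3 locus the maternal copy makes the noncoding RNAs Meg3, Rian and Mirg together with a large cluster of microRNAs and small nucleolar RNAs, and the paternal copy makes Dlk1, a transmembrane protein related to the Notch ligands. In mouse bone marrow, H19 and the Dlk1-Dio3 noncoding RNAs are known for holding back insulin-like growth factor and PI3K-mTOR signalling in long-term HSCs. The counts do not separate the parental copies, so every value is the sum of both.

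H19 lies on chromosome 7 from 142575529 to 142578143 on the minus strand (mm10), and Igf2 lies on the same chromosome from 142650766 to 142666816, also on the minus strand. Dlk1 (109452823 to 109463336), Meg3 (109541001 to 109571726), Rian (109603940 to 109661716) and Mirg (109729764 to 109749460) follow each other on the plus strand of chromosome 12. The other members lie alone among the 10, with Grb10 on chromosome 11 (11930508 to 12038683, minus strand), Plagl1 on chromosome 10 (13060504 to 13131694, plus strand), Ndn on chromosome 7 (62346569 to 62350262, plus strand) and Peg3 on chromosome 7 (6703892 to 6730431, minus strand).

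The noncoding members are hosts of microRNAs, and the mature sequences below, from RefSeq (GRCm38.p6), are from hairpins that lie in H19, in Meg3 and in Rian (for Rian, 1 of the 6 arms of its 3 hairpins), shown because these 3 RNAs are the members whose age differences are described first. The capitals mark the seed, bases 2 to 8, the stretch that pairs with a target RNA.
mmu-miR-675-5p: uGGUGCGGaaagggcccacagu
mmu-miR-675-3p: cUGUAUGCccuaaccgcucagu
mmu-miR-770-5p: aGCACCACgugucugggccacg
mmu-miR-770-3p: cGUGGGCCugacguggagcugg
mmu-miR-370-3p: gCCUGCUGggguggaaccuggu
The microRNA miR-675 comes from an exon of H19 and is known to target Igf1r, the receptor for insulin-like growth factors. No 2 of these 5 sequences share a seed. Over the 117 mature microRNAs of both loci there were 108 distinct seeds, and 9 seeds were shared by a pair each. Below are pairs from the Dlk1-Dio3 cluster that share their seed, which show that separate hairpins of the cluster carry the same target-pairing bases.
mmu-miR-379-5p: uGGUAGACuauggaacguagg
mmu-miR-1193-5p: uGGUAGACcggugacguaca
mmu-miR-379-3p: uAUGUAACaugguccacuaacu
mmu-miR-411-3p: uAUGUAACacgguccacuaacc

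Total counts ran from 16495048 to 22973844 per library with a median of 20397548, so that 3 counts, taken as the floor, were worth 0.131 to 0.182 CPM. CPM is a library's count scaled to a common total, here with trimmed mean of M values (TMM) normalization throughout. Young LT-HSC replicate 3 and young ST-HSC replicate 3 stood apart, since 163 and 160 of the commonly read genes (median over libraries of 200 counts or more) had no count at all in them. The other young libraries lacked 1 to 67 of these genes and the aged libraries 2 to 6. The main age and young fraction values of the members are given with and without them below. The summed level of HSC markers was 3349 to 4554 CPM over the 18 libraries, and Hoxb5 was at 0 in 1 library, young ST-HSC replicate 3. The 12 stromal and endothelial markers summed to 35.5 to 96.9 CPM in every library. Of them Col1a1, Col3a1, Lum and Cdh5 were at 0 in every library, while 5 (Col1a2, Pdgfrb, Emcn, Kdr and Plvap) averaged at least 1 CPM. In bulk samples, fewer cells of a type and less RNA per cell cannot be told apart.

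The members spanned a wide range of levels. Per kilobase of exon, the mean over the 18 libraries was 23.9 CPM for Grb10, an adaptor that binds insulin and insulin-like growth factor receptors, and 12.6 for Ndn, which codes for Necdin, a growth suppressor of quiescent cells. A lower tier followed, with Meg3 at 2.78, H19 at 2.1, Igf2 at 1.87, Dlk1 at 1.85 and Rian at 1.69 CPM per kilobase. The length used was that of all annotated exons of a gene together. Without the length scaling the mean of Meg3, 50.2 CPM, was above that of Ndn, 46.7 CPM. Peg3, a zinc finger protein gene, was at 0.264, Mirg at 0.209 and Plagl1, a zinc finger factor that halts the cell cycle, at 0.0662 CPM per kilobase. Plagl1 was counted in 6 of 18 libraries and fell below the minimum mean of 1 CPM, so 9 of 10 members entered the tests across 12808 genes. H19 was counted in 12 libraries, Mirg in 11, Peg3 in 14, Dlk1 in 16 and the other members in all 18. On the unscaled CPM level, Grb10 stood at or above 94.6% of all tested genes and Mirg at or above 3.51%.

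H19 was high in young LT-HSCs and in part of the young bulk-HSCs, and at or near 0 elsewhere. In young LT-HSCs it was at 32.1, 12.3 and 12.7 CPM, and in aged LT-HSCs at 2.45, 0 and 1.52. In young bulk-HSCs it was at 3.19, 17.6 and 7.75 CPM and in aged bulk-HSCs at 0.441, 0 and 0.537. In young ST-HSCs it was at 0, 1.09 and 0 CPM and in aged ST-HSCs at 0, 1.27 and 0. Young and aged values did not overlap in LT-HSCs or in bulk-HSCs, whereas both ST-HSC groups held 2 libraries at 0 and 1 near 1 CPM. The young mean was 14.4 times the aged mean in LT-HSCs (19 ± 11.3 against 1.33 ± 1.24 CPM, SD, n = 3 each) and 29.2 times in bulk-HSCs (9.52 ± 7.37 against 0.326 ± 0.286, SD, n = 3 each). Over the 9 libraries of each age, the lowest, median and highest values were 0, 7.75 and 32.1 CPM in the young and 0, 0.441 and 2.45 in the aged.

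Fitted across all genes, the age difference of H19 did not pass. The quasi-likelihood test of edgeR, Benjamini-Hochberg adjusted over all tested genes, put the log2 change from young to aged at -3.84 ± 2.03 (SE) in LT-HSCs (adjusted p = 0.641), at -4.84 ± 2.14 in bulk-HSCs (adjusted p = 0.327) and at -2.82 ± 1.13 over the mean of the 3 fractions (adjusted p = 0.162). With 1 library left out, the last value ran from -4.86 without aged ST-HSC replicate 2 (edgeR adjusted p = 0.0464, which passes) to -0.86 without young ST-HSC replicate 2 (adjusted p = 0.951). For a single gene, a two-sided exact permutation test that exchanged age only within each fraction gave a difference of -2.31 on the log2(CPM + 0.5) scale with p = 0.004, where the smallest p that its 8000 arrangements allow is 0.00025. Without the 2 libraries that stood apart the difference was -2.48 (exact permutation p = 0.0075). Of the 1815 counts of H19 in all libraries, 1692 were in young libraries and 123 in aged ones.

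Igf2, the growth factor made from the same locus, showed no such pattern. It was at 6.92, 21.0 and 6.97 CPM in young LT-HSCs and at 12.8, 12.2 and 10.02 in aged LT-HSCs. Young ST-HSCs held 12.7, 1.63 and 5.39 CPM and aged ST-HSCs 6.77, 4.37 and 10.97. Young bulk-HSCs held 10.6, 15.9 and 15.7 CPM and aged bulk-HSCs 12.5, 7.75 and 18.2. The young and aged ranges overlapped in every fraction, and the mean age difference was 0.01 ± 0.382 on the log2 scale (SE, edgeR adjusted p = 0.997). The counts of H19 divided by those of Igf2 in the same library came to 4.64, 0.586 and 1.82 in young LT-HSCs and to 0.302, 1.11 and 0.493 in young bulk-HSCs. In young ST-HSCs the ratio came to 0, 0.667 and 0. No aged library had a ratio above 0.292.

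**Figure D1:**
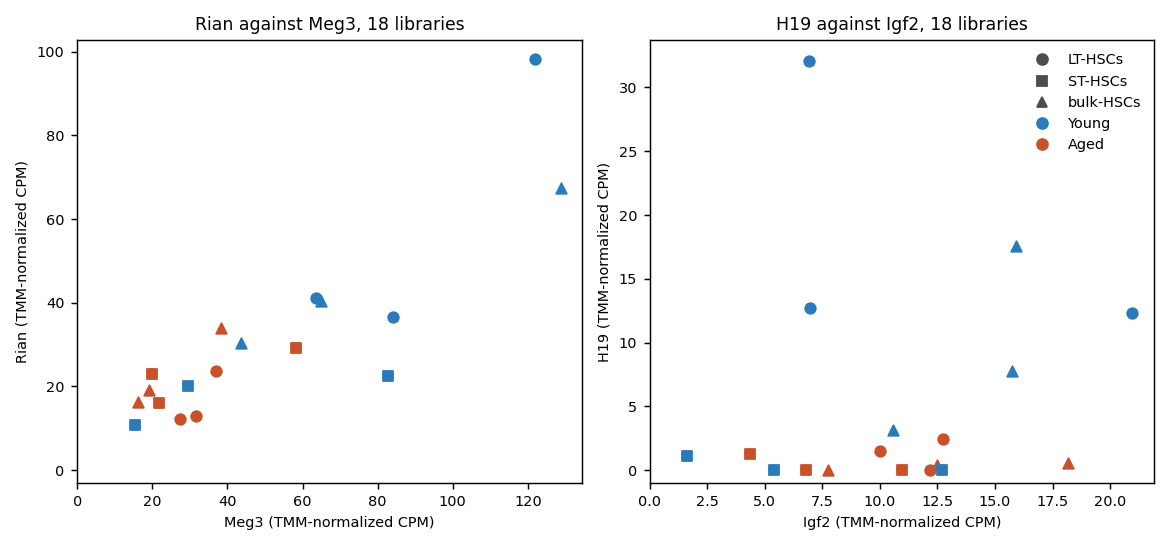
Each point is 1 of the 18 libraries in TMM-normalized CPM, with Rian against Meg3 in the left panel and H19 against Igf2 in the right (young in blue, aged in orange; circles for LT-HSCs, squares for ST-HSCs, triangles for bulk-HSCs). Rian and Meg3 lay along a diagonal, while the aged libraries lay at the bottom of the H19 axis, at 0 to 2.45 CPM, inside the young libraries' span of Igf2. The young ST-HSC libraries also lay at the bottom of the H19 axis, at 0 to 1.09 CPM.

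Meg3 was the 1 member that passed the test over all genes. It is a long noncoding RNA whose promoter region is methylated on the paternal copy. In young LT-HSCs it was at 84.1, 63.7 and 122 CPM, and in aged LT-HSCs at 31.6, 36.9 and 27.3. In young bulk-HSCs it was at 65.0, 129 and 43.7 CPM, and in aged bulk-HSCs at 38.4, 19.1 and 16.1. In young ST-HSCs it was at 29.5, 15.5 and 82.9 CPM, and in aged ST-HSCs at 21.8, 58.4 and 19.8. The groups did not overlap in LT-HSCs and bulk-HSCs and overlapped in ST-HSCs, where 1 young library, replicate 3, stood well above the other two. The young mean was 2.82 times the aged mean in LT-HSCs (89.9 ± 29.6 against 31.9 ± 4.83 CPM, SD, n = 3 each) and 3.22 times in bulk-HSCs (79.1 ± 44.2 against 24.6 ± 12.1, SD, n = 3 each).

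Over the mean of the 3 fractions Meg3 fell with age by 1.18 ± 0.318 on the log2 scale (SE, edgeR adjusted p = 0.0316). It was 1 of 9 tested members called, where 6.75% of all tested genes were called and 2.4% called lower. At an unadjusted p under 0.05 edgeR had 5 of 9 members, against 19.7% of all genes. DESeq2 called 5 of 9 (H19, Meg3, Rian, Dlk1 and Grb10), against 11.7% of all genes. The call was lost without the 2 libraries that stood apart, where the change was -0.78 on the log2 scale (edgeR adjusted p = 0.115). A block for replicate number in the fit also ended the call. It was also lost when any of 10 of the 18 libraries was left out in turn, with values from -1.41 to -0.87 and edgeR adjusted p from 0.012 to 0.0719 over all 18. The 10 were replicate 3 of young LT-HSCs, of young ST-HSCs, of aged ST-HSCs and of aged bulk-HSCs, replicate 2 of young and of aged bulk-HSCs, replicate 1 of aged ST-HSCs and each of the aged LT-HSC libraries. By fraction, edgeR put the change (± SE) at -1.49 ± 0.555 in LT-HSCs (adjusted p = 0.382), -1.69 ± 0.558 in bulk-HSCs (adjusted p = 0.151) and -0.35 ± 0.545 in ST-HSCs (adjusted p = 0.971). Without the 2 libraries the ST-HSC change turned positive, at 0.57 ± 0.515 (SE, edgeR adjusted p = 0.893). The LT-HSC change was then -1.22 ± 0.498 (SE, edgeR adjusted p = 0.483). The exact permutation test within fractions gave -1.09 (p = 0.014), and -0.79 (p = 0.061) without the 2 libraries.

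Rian, the host RNA of many small nucleolar RNAs, lies downstream of Meg3. In young LT-HSCs it was at 36.7, 41.1 and 98.3 CPM and in aged LT-HSCs at 13, 23.7 and 12.3. In young bulk-HSCs it was at 40.4, 67.5 and 30.4 CPM and in aged bulk-HSCs at 34.1, 19.04 and 16.4. In young ST-HSCs it was at 20.2, 10.7 and 22.5 CPM and in aged ST-HSCs at 15.99, 29.3 and 22.97. The ages were apart in LT-HSCs only, overlapped by 1 library in bulk-HSCs, and were mixed in ST-HSCs. The young mean was 3.59 times the aged mean in LT-HSCs and 1.99 times in bulk-HSCs. The log2 change was -1.85 ± 0.453 in LT-HSCs (SE, edgeR adjusted p = 0.0928) and -0.83 ± 0.255 over the 3 fractions (adjusted p = 0.0604). Without young LT-HSC replicate 3, its highest library, the change in LT-HSCs was -1.25 (edgeR adjusted p = 0.397). The exact permutation test gave -0.78 (p = 0.0375), and -0.57 (p = 0.114) without the 2 libraries.

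Mirg, the host of a large block of microRNAs at the far end of the cluster, was near the limit of what the libraries could show. It was at 4.30, 2.25 and 7.85 CPM in young LT-HSCs and at 1.20, 0 and 1.78 in aged LT-HSCs. In the other 4 groups it ran from 0 to 2.74 CPM, and 6 of those 12 libraries had no count. The LT-HSC ages did not overlap, with a log2 change of -2.26 ± 2.58 (SE, edgeR adjusted p = 0.935).

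Dlk1, made from the paternal copy of the same locus, was higher in the aged libraries of ST-HSCs and bulk-HSCs. In young ST-HSCs it was at 0, 2.31 and 0 CPM and in aged ST-HSCs at 5.73, 11.9 and 8.34. In young bulk-HSCs it was at 1.73, 3.86 and 4.16 CPM and in aged bulk-HSCs at 17.2, 7.95 and 21.3. In young LT-HSCs it was at 12.1, 3.82 and 49.9 CPM, and in aged LT-HSCs at 13.4, 13.9 and 11.3. Every aged library lay above every young library in ST-HSCs and in bulk-HSCs, while in LT-HSCs the aged values lay inside the young range. The mean of the aged was 11.2 times that of the young in ST-HSCs (8.66 ± 3.10 against 0.770 ± 1.33 CPM, SD, n = 3 each) and 4.77 times in bulk-HSCs (15.5 ± 6.85 against 3.25 ± 1.32, SD, n = 3 each). Of the young ST-HSC libraries at 0, replicate 3 was one that lacked many common genes, and replicate 1 was not.

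By edgeR the log2 change of Dlk1 was 3.46 ± 1.26 in ST-HSCs (SE, adjusted p = 0.283), 2.25 ± 1.18 for bulk-HSCs (adjusted p = 0.454) and -0.77 ± 1.13 in LT-HSCs (adjusted p = 0.964). The LT-HSC value turned positive without young LT-HSC replicate 3. The change over the 3 fractions was 1.65 ± 0.672 (SE, edgeR adjusted p = 0.168). The exact permutation test within fractions gave 1.76 (p = 0.0105), and 1.93 (p = 0.001) without the 2 libraries. The change in LT-HSCs less the change in ST-HSCs was -4.24 ± 1.67 (SE, edgeR adjusted p = 1), so a difference between the fractions was not shown.

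For the chromosome 12 members, the 250 bases before the start of Meg3 and of Dlk1 are shown because the fitted age changes of these neighbours over the 3 fractions had opposite signs. The windows are from RefSeq (GRCm38.p6). Capitals mark the letters TGCCGC on either strand, the core recognised by ZFP57, a factor that keeps imprints methylated. The Meg3 window, chr12:109540746-109540995 on the plus strand, holds 1 match and 10 CpG sites, and the Dlk1 window, chr12:109452573-109452822 on the plus strand, holds no match and 8 CpG sites.
Meg3: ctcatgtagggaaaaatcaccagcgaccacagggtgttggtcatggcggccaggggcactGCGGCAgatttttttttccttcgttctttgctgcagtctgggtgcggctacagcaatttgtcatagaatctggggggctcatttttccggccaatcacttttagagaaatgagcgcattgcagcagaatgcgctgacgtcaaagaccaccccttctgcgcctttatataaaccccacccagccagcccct
Dlk1: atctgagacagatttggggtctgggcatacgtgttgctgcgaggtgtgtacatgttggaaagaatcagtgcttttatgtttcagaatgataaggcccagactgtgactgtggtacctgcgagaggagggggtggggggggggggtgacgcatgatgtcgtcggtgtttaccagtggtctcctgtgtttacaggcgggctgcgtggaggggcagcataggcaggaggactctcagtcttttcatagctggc
Of the 32851 windows of this length in the RefSeq table, 8.68% hold TGCCGC on either strand. Among the 14 windows of 9 members, the first windows of Meg3 and Plagl1 held 1 each. A CTCF core motif, searched on both strands, was in 0.0335% of all windows and in none of these 14. H19 had no window among those used here, so it was not searched for either motif. The ZFP57 letters can lie within the CTCF core. A match is a description of the letters and not of binding.

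**Figure D2:**
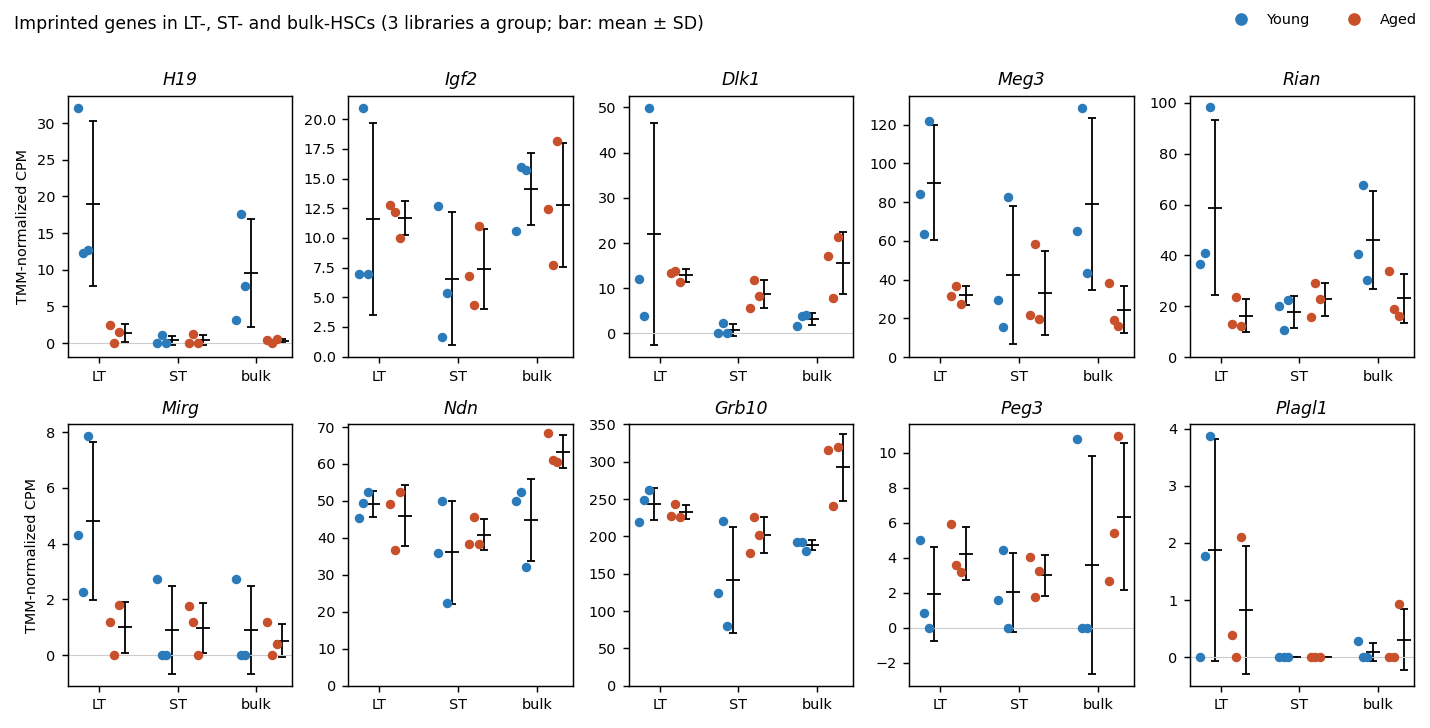
TMM-normalized CPM of the 10 members in each of the 18 libraries (dots) by fraction, young in blue and aged in orange, with the mean and SD of 3 libraries. By group means H19, Meg3 and Rian were highest in young LT-HSCs, Dlk1 was near 0 in young ST-HSCs (0 to 2.31 CPM) and Grb10 was above 80 CPM in every library.

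Grb10, the most abundant member, was at 220, 249 and 262 CPM in young LT-HSCs and at 228, 244 and 226 in aged LT-HSCs. In young bulk-HSCs it was at 192, 193 and 181 CPM and in aged bulk-HSCs at 315, 241 and 320. In young ST-HSCs it was at 124, 220 and 80.6 CPM and in aged ST-HSCs at 177, 227 and 202. The ages were apart in bulk-HSCs, with aged higher, and overlapped in the other fractions. The mean of the aged was 1.55 times that of the young in bulk-HSCs (292 ± 44.4 against 189 ± 6.55 CPM, SD, n = 3 each), a log2 change of 0.63 ± 0.235 (SE, edgeR adjusted p = 0.213). The change in LT-HSCs was -0.07 ± 0.234 (SE, edgeR adjusted p = 0.991) and over the 3 fractions 0.36 ± 0.135 (adjusted p = 0.134). The exact permutation test gave 0.39 (p = 0.0293), and 0.30 (p = 0.041) without the 2 libraries.

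Ndn ran from 22.3 to 68.4 CPM over the libraries. It was at 45.4, 49.5 and 52.5 CPM in young LT-HSCs and at 49.2, 36.6 and 52.3 in aged LT-HSCs. In bulk-HSCs it was at 50.0, 52.4 and 32 CPM in the young and at 68.4, 61.1 and 60.6 in the aged. In ST-HSCs it was at 35.9, 50.1 and 22.3 CPM in the young and at 38.5, 45.7 and 38.4 in the aged. The ages were apart in bulk-HSCs only, where the log2 change was 0.50 ± 0.256 (SE, edgeR adjusted p = 0.432), and the change over the 3 fractions was 0.19 ± 0.148 (adjusted p = 0.540).

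Peg3 was at 5.01, 0.832 and 0 CPM in young LT-HSCs, at 1.61, 4.44 and 0 in young ST-HSCs and at 10.8, 0 and 0 in young bulk-HSCs. The aged libraries held 5.94, 3.57 and 3.20 CPM for LT-HSCs, 4.02, 1.73 and 3.22 for ST-HSCs and 2.69, 5.42 and 10.9 for bulk-HSCs. All 4 libraries with no count were young, and the ages overlapped in each fraction. Among the 4, young bulk-HSC replicates 2 and 3 lacked 29 and 67 of the commonly read genes, where aged libraries lacked 2 to 6. The log2 change over the 3 fractions was 0.83 ± 1.16 (SE, edgeR adjusted p = 0.791). The exact permutation test gave 1.54 (p = 0.044), and 0.97 (p = 0.153) without the 2 libraries, both of which were at 0. The window before the Peg3 start, chr7:6730420-6730669 on the minus strand, holds 8 CpG sites and 1 match to GGGGCCCC (in capitals), letters recognised by PLAGL1, the protein of another member. The match was present in 0.889% of all windows.
Peg3: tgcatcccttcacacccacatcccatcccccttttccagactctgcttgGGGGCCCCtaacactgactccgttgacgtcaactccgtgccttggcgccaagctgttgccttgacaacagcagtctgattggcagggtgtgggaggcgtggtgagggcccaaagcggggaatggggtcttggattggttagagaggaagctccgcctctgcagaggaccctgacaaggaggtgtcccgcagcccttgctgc

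Plagl1 was at 0, 1.76 and 3.87 CPM in young LT-HSCs and at 0.382, 0 and 2.1 in aged LT-HSCs. It was at 0 in all 6 ST-HSC libraries, among them young replicate 3, which lacked 160 commonly read genes. The floor of 3 counts, 0.136 to 0.162 CPM there, covers counting error only, so a higher level is not excluded. Among bulk-HSCs Plagl1 was counted in young replicate 1 at 0.280 CPM and in aged replicate 3 at 0.928. The exact permutation test of age gave -0.14 (p = 0.840), so no difference was detectable at this depth. Its RefSeq window, chr10:13090582-13090831 on the plus strand, holds 19 CpG sites and the other TGCCGC match (in capitals).
Plagl1: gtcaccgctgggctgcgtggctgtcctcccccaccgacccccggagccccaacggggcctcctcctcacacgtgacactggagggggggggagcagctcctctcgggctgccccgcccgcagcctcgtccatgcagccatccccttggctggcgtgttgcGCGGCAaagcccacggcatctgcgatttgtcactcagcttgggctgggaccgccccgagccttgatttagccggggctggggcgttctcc
The single most CpG-rich window belonged to Grb10, with 40 CpG sites, at or above 98.9% of all windows.

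**Figure D3:**
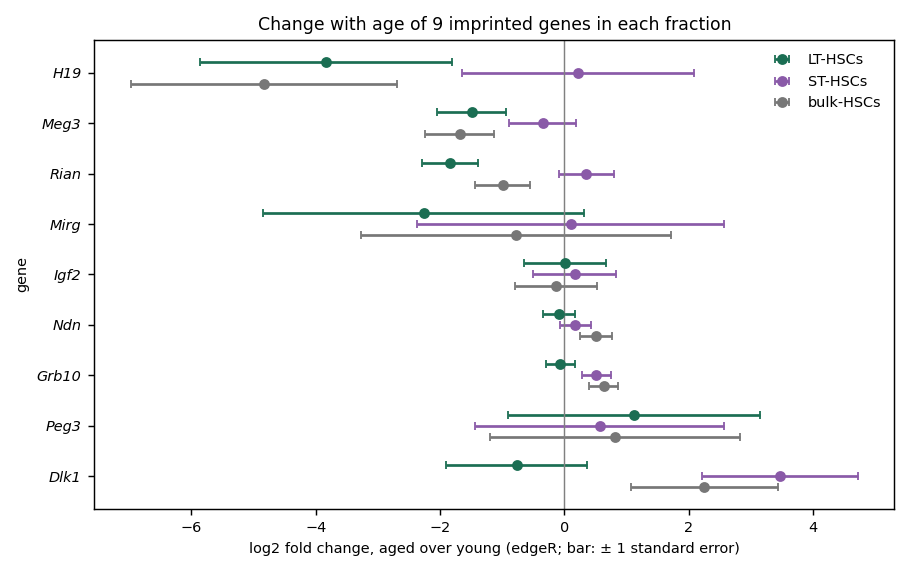
The log2 change from young to aged with its SE (edgeR, 3 libraries a group) for the 9 tested members in LT-HSCs, ST-HSCs and bulk-HSCs. Meg3 and Rian lay below 0 in LT-HSCs (-1.49 and -1.85) and bulk-HSCs (-1.69 and -0.99), and Dlk1 lay above 0 in ST-HSCs (3.46) and bulk-HSCs (2.25).

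Counted by overlap, 4 of 9 tested members (H19, Meg3, Rian and Mirg) were lower in every aged than in every young LT-HSC library, against 5.89% of all tested genes. In ST-HSCs 1 of 9, Dlk1, was higher in every aged library, against 10.2% of all genes. In bulk-HSCs 3 of 9 (Dlk1, Ndn and Grb10) were higher, against 13.4%, and 2 of 9 (H19 and Meg3) lower, against 9.29%. None of the 9 passed the adjusted threshold of 0.05 within a fraction by edgeR, where 0.445% of all genes passed for LT-HSCs, 0.851% for ST-HSCs and 1.98% for bulk-HSCs. Taking unadjusted edgeR p under 0.05 instead, the fractions in that order had 2, 2 and 4 members, against 8.81%, 9.67% and 13.3% of all genes. DESeq2 called 1 member in LT-HSCs, Rian, where it called 2.27% of all genes. It called 1 in ST-HSCs, Dlk1, against 3.51% of all genes, and 0 in bulk-HSCs, against 5.81%. The members' median log2 change was -0.77 (0.04 over all tested genes) for LT-HSCs, 0.21 (0.02) for ST-HSCs and -0.14 (0.03) for bulk-HSCs. The same young and aged libraries enter the mean over fractions, so these counts are not separate evidence from it.

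The age change in LT-HSCs was set against that in ST-HSCs, which asks whether a member's change belonged to 1 fraction. For Rian the difference of the changes was -2.20 ± 0.629 on the log2 scale (SE, edgeR adjusted p = 0.872). It was -1.14 ± 0.771 for Meg3 and -4.05 ± 2.71 for H19 (SE, edgeR adjusted p = 1 for both). No member passed by edgeR, 2 of 9 had an unadjusted p under 0.05 (Rian and Dlk1) against 3.92% of all genes, and DESeq2 called Rian, 1 of 9 against 0.651% of all genes. Without the 2 libraries that stood apart, the difference for Rian was -1.83 ± 0.615 and for Dlk1 -2.23 ± 1.45 (SE, edgeR adjusted p = 1 for both). No gene of the whole table passed by edgeR for this comparison. With the change in LT-HSCs set against that in bulk-HSCs instead, no member passed by edgeR. Grb10 had the lowest unadjusted p, with a difference of changes of -0.70 ± 0.331 (SE, edgeR adjusted p = 0.846). It was the 1 member of 9 with an unadjusted p under 0.05, where 5.82% of all genes had one and 0.00781% passed.

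The young LT-HSCs and ST-HSCs were compared for the same genes. H19 in young LT-HSCs averaged 52.5 times its level in young ST-HSCs, Dlk1 28.5 times, Rian 3.29 times, Meg3 2.11 times and Grb10 1.72 times. The ratios of H19 and Dlk1 rest on young ST-HSC replicate 2, since both genes were at 0 in the other young ST-HSC libraries. With 1 library left out, the fitted log2 difference ran from 5.07 to 11.57 for H19 and from 3.34 to 11.77 for Dlk1, the highest values being those without that replicate, where Dlk1 passed (edgeR adjusted p = 0.004). The libraries of the 2 fractions did not overlap for 3 of 9 tested members (H19, Rian and Dlk1, all higher in LT-HSCs), against 6.04% of all genes that were higher without overlap. By edgeR the log2 difference, LT-HSCs less ST-HSCs, was 4.80 ± 1.33 for Dlk1 (SE, adjusted p = 0.137), 1.72 ± 0.451 for Rian (adjusted p = 0.114), 0.78 ± 0.235 for Grb10 (adjusted p = 0.186) and 5.68 ± 2.22 for H19 (adjusted p = 0.358). None passed, 0.429% of all genes did, and 4 of 9 had an unadjusted p under 0.05, against 10.4% of all genes. DESeq2 called these 4 members, against 3.03% of all genes. Without the 2 libraries that stood apart, the difference by edgeR was 2.78 ± 1.18 for Dlk1 (SE, adjusted p = 0.519), 1.33 ± 0.479 for Rian (adjusted p = 0.379), 0.45 ± 0.206 for Grb10 (adjusted p = 0.561), 5.34 ± 2.52 for H19 (adjusted p = 0.578) and 1.72 ± 0.569 for Meg3 (adjusted p = 0.320).

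In aged mice the ratio of LT-HSC to ST-HSC means was 3.12 for H19, 1.48 for Dlk1, 0.718 for Rian, 0.959 for Meg3 and 1.15 for Grb10. No tested member was free of overlap between the fractions, against 15% of all genes. By edgeR 0 of 9 passed adjusted (0.00781% of all genes) and 0 of 9 had an unadjusted p under 0.05 (3.41%), with 0 calls by DESeq2 (0.431% of all genes). Whether the LT-HSC to ST-HSC difference itself differed between the ages is the comparison of changes given above, which no member passed by edgeR.

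By group means, young bulk-HSCs lay between the other young fractions for most members, with Igf2 and Peg3 as exceptions. Rian in young ST-HSCs was below every young bulk-HSC library, with a log2 difference of -1.37 ± 0.447 (SE, edgeR adjusted p = 0.301), and H19 likewise with -4.68 ± 2.12 (adjusted p = 0.498). Without the 2 libraries these were -1.58 ± 0.455 and -4.12 ± 2.31 (SE, edgeR adjusted p = 0.191 and 0.580). These were 2 of 9 members without overlap, where 10.9% of all genes did not overlap, and 2 of 9 with an unadjusted edgeR p under 0.05, where 9.63% had one and 0.164% passed. In the aged, Ndn and Grb10 were lower in every ST-HSC than in every bulk-HSC library, 2 of 9 against 14.5% of all genes, with log2 differences of -0.63 ± 0.257 and -0.53 ± 0.234 (SE, edgeR adjusted p = 1 each). The same 2 had an unadjusted p under 0.05, as did 2.7% of all genes. Between LT-HSCs and bulk-HSCs, 1 of 9 did not overlap in the young (Grb10, higher in LT-HSCs), where 12.2% of all genes did not, and 1 of 9 in the aged (Ndn, lower), where 15.1% did not. By edgeR 1 of 9 and 0 of 9 had an unadjusted p under 0.05 in these 2 comparisons, against 11.5% and 3.29% of all genes, and 0.273% of genes passed adjusted in the young.

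With the group means removed, Meg3 and Rian varied together over the 18 libraries (r = 0.79), as did Ndn and Grb10 (r = 0.746) and Dlk1 and Grb10 (r = 0.632). The rank correlations were 0.754, 0.498 and 0.701 in that order, and Ndn and Grb10 were both lowest in young ST-HSC replicate 3. The most negative pairs were Rian and Peg3 (r = -0.564), Igf2 and Dlk1 (r = -0.541) and Meg3 and Peg3 (r = -0.53). Over the 36 pairs of tested members the median r was 0.00259, and 18 were positive. These are descriptions, since all genes of a library share its depth and quality. The Rian to Meg3 count ratio averaged 0.629 in young LT-HSCs, 0.614 in young bulk-HSCs and 0.550 in young ST-HSCs. In the aged it averaged 0.967 in bulk-HSCs, 0.798 in ST-HSCs and 0.501 in LT-HSCs.

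Over all genes tested, the level most like that of H19 across the 18 libraries was Igf2bp2 (r = 0.86). The most alike to Meg3 was Rian (r = 0.842), followed by Ifitm1 (0.823) and Rtl1 (0.782), the retrotransposon-derived gene of the same locus. Dlk1 was most like Tgm2 (0.866), Grb10 most like Rarb (0.897), Ndn most like Dusp3 (0.849) and then Grb10 (0.847), and Igf2 most like Snap23 (0.779). Likeness was Pearson's r of log2 CPM with the group means kept, so differences between ages and fractions enter it. With the group means removed, r was 0.79 for Meg3 and Rian and 0.746 for Ndn and Grb10. The rank correlations, in the order named, were 0.804, 0.833, 0.833, 0.748, 0.764, 0.794, 0.668, 0.688 and 0.649. These genes were picked as the highest r over all tested genes, and whether such values exceed chance was not tested.

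The Dlk1-Dio3 locus was read almost wholly through the members. From 109452485 to 110281097 on chromosome 12 the RefSeq annotation (GRCm38.p6) lists 103 genes, of which 77 had a row in the count table and 58 had a count. Dlk1, Meg3, Rian and Mirg held 91.1% of the 36155 counts there. Rtl1 held 1914 counts, and Dio3, the deiodinase gene that closes the locus, had none. The 61 rows of microRNA hairpins held 786 counts together, at most 67 for any (Mir485). The libraries were made from long RNA fragments and do not measure mature microRNAs, so a count there is a read of a precursor or host. Summed over microRNA and small nucleolar RNA rows, counts ran from 42 to 210 per library in young LT-HSCs, with the 210 in replicate 3, and from 32 to 48 in aged LT-HSCs. They ran from 16 to 101 in young and 32 to 64 in aged ST-HSCs, and from 37 to 56 in young and 6 to 61 in aged bulk-HSCs, so the ages overlapped in each fraction.

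Of 72 other imprinted genes, 48 were tested, and 2 of them passed for age over the 3 fractions, both lower, where 6.75% of all genes passed. Kcnq1ot1, the noncoding RNA that silences the Cdkn1c domain, fell by 0.57 on the log2 scale (edgeR adjusted p = 0.000469), and Ppp1r9a fell by 0.58 (adjusted p = 0.00174). Kcnq1ot1 was at 680, 982 and 1104 CPM in young LT-HSCs and at 635, 612 and 634 in aged LT-HSCs. All aged values there lay below the young, as for 5.89% of all genes, but it did not pass (edgeR adjusted p = 0.150). In ST-HSCs it ran from 774 to 1047 CPM in the young and 469 to 540 in the aged, and passed (edgeR adjusted p = 0.0109). That call was kept in 15 of the 18 fits with 1 library left out. In bulk-HSCs the ages overlapped, at 677 to 861 against 559 to 695 CPM. The median change of the 48 was -0.02, against 0.04 for all genes. Cdkn1c, which codes for the cell cycle inhibitor p57, was lower in young ST-HSCs than in young bulk-HSCs by a log2 difference of -1.33 (edgeR adjusted p = 0.0103), at 25.8, 37.2 and 24.5 against 86.4, 58.6 and 75.2 CPM. That call was lost without young ST-HSC replicate 3 (-1.22, edgeR adjusted p = 0.0516), with a replicate block within age (-1.34, adjusted p = 0.0586) and in a fit on those 2 groups only (-1.33, adjusted p = 0.718). Slc22a3, an organic cation transporter, was lower in young LT-HSCs than in young ST-HSCs by a log2 difference of -2.14 (edgeR adjusted p = 0.00102). Without the 2 libraries that stood apart it was -1.82 (edgeR adjusted p = 0.0160), and the call was lost in a fit on those 2 groups only (-2.14, adjusted p = 0.0631). Strand use in counting is not given in the sources used here, so reads of Kcnq1ot1 and of its host Kcnq1, and of Rtl1 and its antisense partner, could not be told apart.

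In the insulin-like growth factor and PI3K pathway, 32 of 44 listed genes were tested and 3 passed for age over the 3 fractions, all lower, again beside 6.75% of all genes. Igf2bp2, an RNA-binding protein that takes its name from binding Igf2 mRNA, was at 59.6, 43.9 and 54.1 CPM in young LT-HSCs and at 19.03, 9.34 and 11.9 in aged LT-HSCs. It fell by 1.97 ± 0.335 in LT-HSCs (log2, SE, edgeR adjusted p = 0.0143) and by 1.39 ± 0.190 over the 3 fractions (adjusted p = 0.00016). The LT-HSC call was lost without aged LT-HSC replicate 2 or replicate 3, where the change was -1.77 and -1.89 (edgeR adjusted p of at most 0.0748), and in a fit on the LT-HSC groups only (-1.98, adjusted p = 0.0892). Pik3cd, a catalytic subunit of PI3K, fell by 0.80 over the 3 fractions (edgeR adjusted p = 9.92e-05), and Foxo3, a factor held back by the pathway, fell by 0.29 (adjusted p = 0.0304), a call kept in 10 of the 18 fits with 1 library left out. Among receptors, Igf1r changed by -0.04 (edgeR adjusted p = 0.852), Insr by -0.13 (adjusted p = 0.488) and Igf2r, itself imprinted, by -0.15 (adjusted p = 0.662). Igf2bp1 had no count in any library, where the floor of 3 counts, which covers counting error only, was 0.131 to 0.182 CPM. Of 16 tested genes that set or keep imprints, 2 passed, with Tet3, which oxidises methylated cytosine, lower by 0.44 and Dnmt1, the maintenance methyltransferase, lower by 0.41 (log2 changes of -0.44 and -0.41, edgeR adjusted p = 0.00244 and 0.0492). The call of Dnmt1 was kept in 5 of the 18 fits with 1 library left out and lost without the 2 libraries that stood apart (-0.32, edgeR adjusted p = 0.155). Ctcf, whose protein binds the H19-Igf2 control region, changed by 0.01 (edgeR adjusted p = 0.971).

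**Figure D4:**
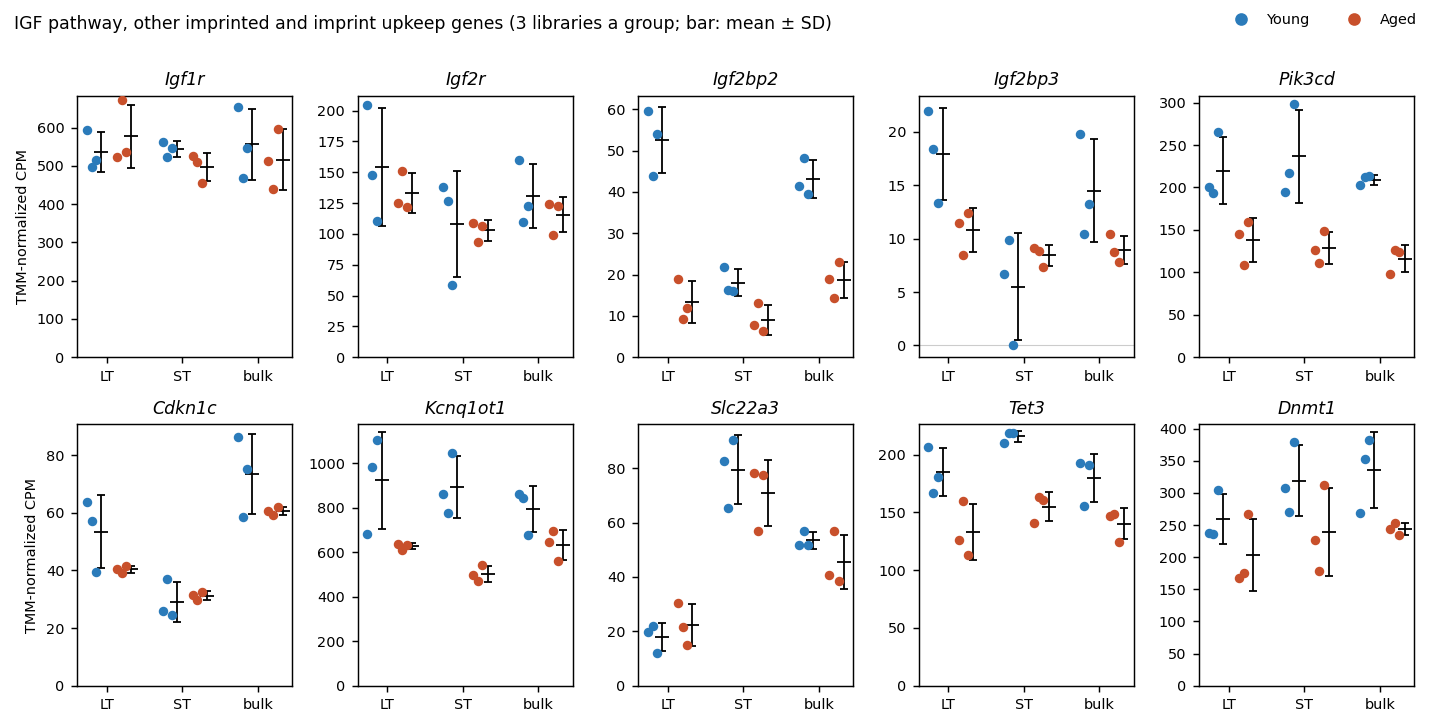
TMM-normalized CPM in each of the 18 libraries (dots, young in blue and aged in orange, mean and SD of 3 libraries) for genes of the insulin-like growth factor and PI3K pathway, other imprinted genes and imprint upkeep. Igf2bp2 was lower in aged than in young LT-HSCs with no overlap (9.34 to 19.03 against 43.9 to 59.6 CPM), while Igf1r group means stayed between 497 and 577 CPM.

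Progenitor markers moved with age beside these results, with 4 of 5 tested passing over the 3 fractions by edgeR, all lower, against 6.75% of all genes. Of the 10 HSC markers 2 passed, both higher, namely Slamf1 by 0.68 (log2, edgeR adjusted p = 0.00298) and Procr by 0.40 (adjusted p = 0.00663). The progenitor list's summed level was 393 to 736 CPM in young and 274 to 349 in aged LT-HSCs, 644 to 965 in young and 356 to 610 in aged ST-HSCs, and 612 to 882 in young and 371 to 464 in aged bulk-HSCs. Mature blood markers summed to 8.85 to 22.4 CPM in young LT-HSCs and 26.1 to 55.3 in the other groups. Their part in the age and fraction differences of the members was not tested.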

How the data were processed

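The authors mapped reads of ribosome-depleted total RNA to mm10 with HISAT2 and quantified them with StringTie 1.3.4d. They deposited raw counts per gene symbol for the 18 libraries, and the annotation and strand setting behind the counts are not given in the sources used here. From the deposited counts, edgeR 4.0.16 (R 4.3.3) with TMM normalization fitted 6 group means (12 residual degrees of freedom) to 12808 genes (mean over libraries not below 1 CPM), with quasi-likelihood tests of 12 contrasts and Benjamini-Hochberg adjustment over all genes at 0.05. Single members were also tested by a two-sided exact permutation of age within fractions on log2(CPM + 0.5), 10 tests with unadjusted p. DESeq2 1.42.0, other normalizations, filters, a replicate block and leaving out libraries were alternatives. The code was tested on simulated data. Exon lengths came from GENCODE M21 (mm10). Named genes were all members, the listed genes passing the adjusted threshold, the pathway's receptors and the 3 genes most like a member. The members and lists were chosen with earlier results of these data known. Floors of 3 counts cover counting error only.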

Additional observations from a re-analysis of the deposited data

How the results depend on the processing

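The count of members called moved with the tool, the filter and the libraries. For age, DESeq2 called 1 in LT-HSCs, 1 in ST-HSCs and 5 over the 3 fractions (H19, Meg3, Rian, Dlk1 and Grb10), against 0, 0 and 1 by edgeR. Over all genes DESeq2 called 2.27%, 3.51% and 11.7% in these comparisons, and edgeR 0.445%, 0.851% and 6.75%. DESeq2 called 4 for young LT-HSCs against ST-HSCs and 1 for the difference of age changes between these fractions, against 0, where it called 3.03% and 0.651% of all genes. Where every library had to hold 10 counts, edgeR called 2 over the 3 fractions (Meg3 and Rian), and without the 2 libraries that stood apart 0 there and 1 in bulk-HSCs (Grb10, adjusted p = 0.0468), an alternative chosen after seeing the data. With the replicate block 0 passed (Meg3 adjusted p = 0.0509). Same-numbered libraries did not deviate together (correlations -0.0432 to 0.135), and no other member call changed with the block. Leaving out 1 library gave 0 to 1 members in LT-HSCs, 0 to 2 in ST-HSCs, 0 to 1 in bulk-HSCs, 0 to 4 over the 3 fractions, 0 to 2 for young LT-HSCs against ST-HSCs and 0 to 2 for young ST-HSCs against bulk-HSCs. Without young ST-HSC replicate 2, Dlk1 passed in ST-HSCs (edgeR adjusted p = 0.0055), but replicates 1 and 3, the young ST-HSC libraries left, were both at 0. The exact permutation differences with 1 library out ran from 0.279 to 0.520 for Grb10, -0.083 to 0.355 for Igf2, 0.120 to 0.312 for Ndn, 1.24 to 2.04 for Peg3, -0.432 to 0.089 for Plagl1 and -0.885 to -0.631 for Rian. Those of H19, Dlk1 and Meg3 stayed at p under 0.05 in all 18. Igf2 reversed to -0.083 without young ST-HSC replicate 2, and Plagl1 to 0.089 without the 2 libraries and 0.040 without aged LT-HSC replicate 2. With a pseudocount of 1 Peg3 was at 1.13 (exact permutation p = 0.053), and without the 2 libraries Meg3 was at -0.791, Rian at -0.565 and Peg3 at 0.967. The cause was not tested. Low counts limit Mirg, Peg3, Plagl1 and aged H19, which had no count in several libraries.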

Other observations

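Igf1, which codes for the circulating ligand of Igf1r and is not imprinted, was looked at after its values were seen. It averaged 24.0 ± 12.8 CPM in young LT-HSCs and 4.01 ± 3.09 in aged LT-HSCs (SD, n = 3 each), 26.4 and 6.60 CPM in young and aged bulk-HSCs, and 6.45 and 7.98 CPM in young and aged ST-HSCs. Its log2 change over the 3 fractions was -1.42 (edgeR adjusted p = 0.223). Igf2bp3, a relative of Igf2bp2, averaged 17.9 ± 4.34 CPM in young and 10.8 in aged LT-HSCs, with 5.51 ± 5.04 in young ST-HSCs, and did not pass in any comparison by edgeR.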
